A study of Mus musculus with 10 samples.

Results

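The genes described here carry provisional symbols, either Gm plus a number (predicted gene models) or a symbol ending in Rik (models built from RIKEN full-length cDNA clones), and their levels separated the lateral from the medial shell of the mouse nucleus accumbens. They were chosen by 2 criteria: a mean of 5 or more TPM (transcript levels scaled to a fixed library total) in either region, and no overlap between the regions, so that the lowest of the 5 values of one region lay above the highest of the 5 of the other. Of the 20483 genes in the table, 6428 have such symbols, 1974 of these reached the mean, and 73 met both criteria: 7 were higher in the lateral and 66 in the medial shell. After median-ratio scaling between libraries, in place of TPM as deposited, the same criteria gave 21 and 39 genes. Because the rule is itself the contrast between the regions, the levels and differences of the 73 genes are a description and carry no test.

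The libraries came from wild-type (WT) mice with no treatment named in the labels, 5 from the lateral and 5 from the medial shell, and the labels give the cell type as mouse neural cell. The complementary DNA was made by Geo-seq, in which small pieces of a section are captured by laser and amplified from little RNA, and it was turned into libraries with the transposase-based TruePrep kit. The animals' age and sex and the placement of the captured pieces are not stated in the labels. The labels number the samples as biological replicates without saying that each came from its own animal, so the p-values below speak only of the spread among these samples, part of which may be technical.

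A gene keeps a provisional symbol until a function or a named homologue is assigned to it, so such symbols cover several kinds of locus. Many are long noncoding RNAs, which can run antisense to a coding gene, start beside its promoter and read away from it, or lie between genes, and which in the brain are often restricted to particular neurons. Others are processed pseudogenes, copies of spliced messages put back into the genome, and others are small RNAs cut out of longer host transcripts. The GENCODE type TEC marks loci, mostly of 1 exon, that rest on transcript evidence and still await an experiment, and many of them lie within introns of coding genes.

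The gene types of the 73 were mixed in different proportions in the 2 directions. Of the 66 genes higher in the medial shell, 31 (47%) were TEC loci, 9 antisense RNAs, 6 lincRNAs (long intergenic noncoding RNAs), 6 processed transcripts and 7 protein-coding genes. TEC loci made up 24% of all 1974 provisional symbols with the required mean. The 7 genes higher in the lateral shell comprised 2 lincRNAs and 1 each of the types TEC, antisense, microRNA, processed pseudogene and processed transcript. Of all 1974 symbols, 0.355% were higher in lateral and 3.34% in medial without overlap, against 1.22% and 4.12% of the 9933 genes with other symbols and 1.07% and 3.99% of all 11907 genes. By type, 6.54% of 474 TEC loci, 6.38% of 141 antisense RNAs, 9.09% of 66 processed transcripts and 0.546% of 549 processed pseudogenes were among those higher in medial, as were 3.51% of 171 lincRNAs. In lateral these shares were 0.211% for TEC loci, 0.709% for antisense RNAs, 1.17% for lincRNAs, 1.52% for processed transcripts and 0.182% for processed pseudogenes. The spliced lengths of the medial genes had a median of 2440 bases, against 1020 bases for all 1974.

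Some of these loci are best read from their sequence. Gm14204, 4632427E13Rik and Gm16638 each start within 134 bases of a coding gene on the other strand, so a single window of 300 bases holds both starts. The windows run from 250 bases before a RefSeq start to 50 bases after it (RefSeq sequence, GRCm38.p6), are written 5′ to 3′ on the strand given, and have in capitals the bases between the 2 starts as GENCODE M21 places them. The first is that of Gm14204 beside Slc32a1 (chr2:158610674-158610973, minus strand), with 43 bases between the starts. The second is that of 4632427E13Rik beside Rab30 (chr7:92741410-92741709, minus strand), with 134 bases. Gm16638 has no window in the RefSeq table, and the third is that of its partner Stard5 (chr7:83631767-83632066, plus strand), with 78 bases.
Gm14204: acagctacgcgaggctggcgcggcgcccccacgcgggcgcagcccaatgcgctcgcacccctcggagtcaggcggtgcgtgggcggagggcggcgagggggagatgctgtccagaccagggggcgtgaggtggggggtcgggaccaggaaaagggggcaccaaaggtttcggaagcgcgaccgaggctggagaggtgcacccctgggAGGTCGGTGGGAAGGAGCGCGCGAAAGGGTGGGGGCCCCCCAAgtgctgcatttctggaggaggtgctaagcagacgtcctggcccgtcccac
4632427E13Rik: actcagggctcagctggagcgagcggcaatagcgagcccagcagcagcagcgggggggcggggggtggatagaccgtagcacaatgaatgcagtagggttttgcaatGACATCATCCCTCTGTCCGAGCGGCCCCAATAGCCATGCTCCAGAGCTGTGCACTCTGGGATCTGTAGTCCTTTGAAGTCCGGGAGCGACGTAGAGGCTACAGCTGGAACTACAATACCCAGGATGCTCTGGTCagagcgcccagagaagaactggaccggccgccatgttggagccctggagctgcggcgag
Stard5: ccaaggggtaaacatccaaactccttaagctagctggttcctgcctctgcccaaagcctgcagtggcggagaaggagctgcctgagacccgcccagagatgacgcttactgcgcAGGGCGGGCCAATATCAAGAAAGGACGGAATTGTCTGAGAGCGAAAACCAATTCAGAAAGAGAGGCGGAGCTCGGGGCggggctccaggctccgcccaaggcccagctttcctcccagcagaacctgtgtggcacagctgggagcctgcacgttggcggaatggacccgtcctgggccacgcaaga

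Windows were held for 13 of the 73 genes, 21 windows in all, 7 of them of 1700019D03Rik. The CCAAT box (CCAAT, either strand) was found in 11 of the 21 windows (52.4%) and in 37.4% of all 32851 windows. The GC box (GGGCGG) was found in 8 (38.1%, against 35.7%), the TATA box (TATAAA) in 5 (23.8%, against 13.6%), the core of the cAMP response element (TGACG) in 3 (14.3%, against 20.8%) and the AP-1 motif (TGANTCA) in 1 (4.76%, against 7.81%). These are matches of letters only.

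The next 4 sequences show what kind of RNA stands behind a symbol. Gm26645, the gene with the largest difference toward lateral, is a single-exon lincRNA, and its first 100 bases (chr13:15461196-15461295, minus strand, GENCODE M21) are shown. Gm27529 is typed as a microRNA, but all of its 80 bases (chr15:7975328-7975407, plus strand) also occur in 2 transcripts of the ribosomal protein gene Rpl19. Gm24966 is a snoRNA, a small nucleolar RNA, of 79 bases (chr7:59344073-59344151, minus strand), with its first TGATGA and its last CTGA in capitals. An exon of Gm26871 holds the precursor of miR-137, a neuronal microRNA, whose mature 3p arm (chr3:118433901-118433923, plus strand) is shown with the seed, bases 2 to 8, in capitals.
Gm26645: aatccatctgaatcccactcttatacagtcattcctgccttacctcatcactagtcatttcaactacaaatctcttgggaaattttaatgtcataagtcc
Gm27529: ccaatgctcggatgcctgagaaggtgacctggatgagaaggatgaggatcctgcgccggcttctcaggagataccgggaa
Gm24966: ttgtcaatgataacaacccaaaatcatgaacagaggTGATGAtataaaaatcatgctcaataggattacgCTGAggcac
mmu-miR-137-3p: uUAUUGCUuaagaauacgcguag

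Across libraries, the summed level of the 66 medial genes ran from 906 to 1245 TPM in the medial and from 252 to 480 TPM in the lateral libraries. The summed level of the 7 lateral genes ran from 71 to 142 TPM in lateral and from 25.2 to 34.4 TPM in medial libraries. Means in the higher region had a median of 12.6 TPM (5.15 to 66.4) for the medial genes and of 10 TPM (6.1 to 26) for the lateral ones. Each difference is lateral minus medial in mean log2(TPM + 1), and the added 1 makes it too small for genes at low levels. Their median was -1.56 over the medial genes, 54 of which exceeded 1 and 12 of which exceeded 2 in size, and 1.55 over the lateral genes. In bulk tissue, fewer cells that express a gene and less RNA per cell cannot be told apart. TPM keeps no depth, so the read number behind each value is unknown, and 16 of the medial genes were listed at 0 in at least 1 lateral library.

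**Figure D1:**
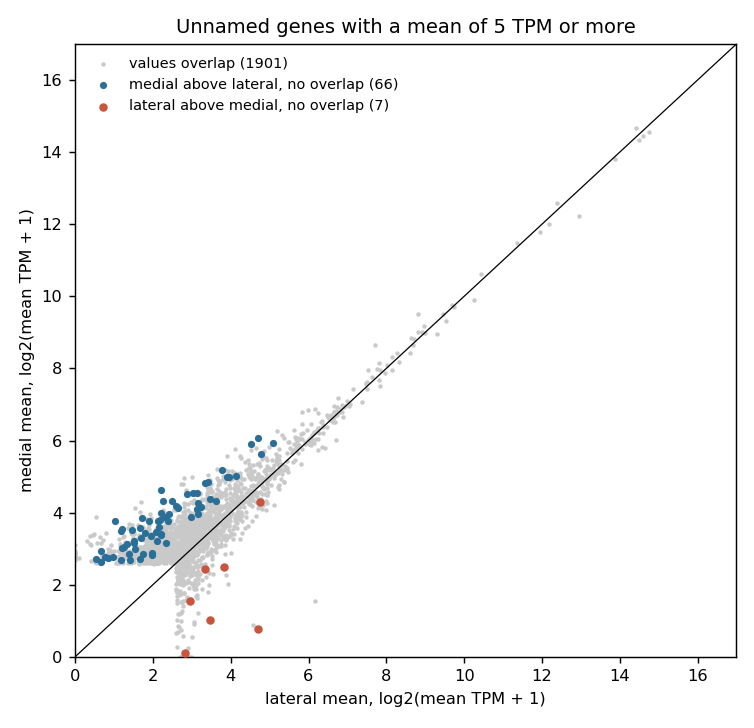
Mean level of each provisional gene of the required mean in the medial shell (vertical axis) against the lateral shell (horizontal axis), both as log2(mean TPM + 1), with 1 point per gene (n = 5 libraries a region). The 66 genes higher in medial lie above the diagonal and the 7 higher in lateral below it, and grey points are genes whose values overlap.

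The rule drew a sharp line through closely spaced genes. On the lateral side, 5530402G07Rik was just inside (lowest lateral value 4.08, highest medial value 3.83 TPM) and Gm12669 just outside (5.25 and 5.48 TPM). On the medial side, Gm28756 (lowest medial 2.61, highest lateral 2.59 TPM), Gm13833 (4.19 and 4.17 TPM) and Gm37911 (4.08 and 3.98 TPM) were just inside, while C130030K03Rik (12 and 12.1 TPM) and 1190007I07Rik (15 and 15.1 TPM) were just outside. Gm19522, with a medial mean of 5.15 TPM, was just above the required mean and Gm28379, at 4.93 TPM, just below it. A further 24 provisional genes higher in medial and 4 higher in lateral did not overlap but had means under 5 TPM.

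Of 5 measures of whole libraries, none differed between the regions after adjustment. Lateral libraries listed 14909 ± 507 genes at 1 TPM or more and medial libraries 15554 ± 303 (SD, n = 5 each; exact two-sided permutation test, p = 0.0397, or 0.172 after adjustment over 5 library measures). The share of TPM in mitochondrially encoded genes was 31.9% ± 3.85 against 28.4% ± 3.46 (exact p = 0.175, adjusted 0.218), and the 4454 provisional genes with means under 5 TPM held 0.565% ± 0.134 against 0.706% ± 0.0995 (exact p = 0.103, adjusted 0.172). Lateral replicate 1 had the fewest genes of at least 1 TPM (14261) and held the lowest lateral value of 28 of the 66 medial genes. Lateral replicate 5 and medial replicate 2 stood apart in the transcript AY036118 (1.38 and 1.42 TPM, against 82500 to 144263 in the others). Without those 2 libraries, 25 lateral and 104 medial genes met the rule, including all 7 and 64 of the 66, with Gm16861 and Gm20342 lost. Of 12 microglia markers all were higher in lateral and 3 passed the test described below, with summed levels of 505 to 777 against 261 to 511 TPM. The summed levels of 12 oligodendrocyte markers were 343 to 1074 against 147 to 544 TPM (0 passed), those of 7 interneuron markers 522 to 5684 against 30 to 1688 TPM (0 passed), and those of 5 neuroblast and progenitor markers 8.36 to 24.6 against 29.9 to 55.6 TPM (1 passed, higher in medial). Of 10 astrocyte markers 3 were higher in lateral and 1 passed, as higher in medial, with summed levels of 937 to 1258 against 1023 to 1424 TPM. All 4 blood markers were higher in lateral (137 to 4106 against 73.6 to 2558 TPM, 0 passed). No marker of oligodendrocyte precursors, endothelial and mural cells, cholinergic interneurons or ependymal cells passed. Spiny projection neuron markers, which define the tissue, summed to 3760 to 5870 against 3909 to 6182 TPM, and 0 passed. The 2 of 6 markers of excitatory cortical neurons in the table had means under 1 TPM. The part of these differences in the levels of the provisional genes was not tested.

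The lateral shell was marked most by Gm26645 and Gm6556, neighbours on chromosome 13 beside Gli3, the gene of a transcription factor of the hedgehog pathway. In replicates 1 to 5, in this order here and below, Gm26645 stood at 26, 49.7, 8.59, 19.1 and 21.1 TPM in lateral libraries and at 0.396, 0, 2.61, 0 and 0.472 TPM in medial libraries, a difference of 3.92. Gm6556 stood at 7.26, 11.3, 3.07, 6.15 and 2.74 TPM in lateral libraries and at 0, 0, 0, 0 and 0.345 TPM in medial libraries, a difference of 2.60. By the rule, every lateral library held both transcripts. The highest level of both was in lateral replicate 2, and Gm6556 was listed above 0 in only 1 medial library. Gm26645 (15459980 to 15461295, minus strand) lies within an intron of Gm6556 (15440302 to 15463736, minus strand), so the models share a strand and a locus. With the region means removed, their log2 levels correlated at r = 0.58 over the 10 libraries, a description of 2 genes read from the same libraries. Gli3, on the opposite strand and sharing 188 exonic bases with Gm6556, was listed at 0 in all libraries except medial replicate 5 (2.47 TPM), too low to be tested. A530058O07Rik, a TEC locus 87289 bases from Gli3 on the other side, belongs to the opposite group: it was at 8.24 ± 2.8 TPM in medial against 1.84 ± 0.382 TPM in lateral libraries (SD, n = 5 each).

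The other lateral genes were 3110039M20Rik, Gm2415, 5530402G07Rik, Gm5921 and Gm27529. 3110039M20Rik is a lincRNA of 3 exons on chromosome 12, and it had the highest level of the 7: 29.3, 24.7, 25.2, 22.8 and 27.9 TPM in lateral against 19.5, 21.2, 17.7, 15.1 and 19.6 TPM in medial libraries. Its difference of 0.46 was the smallest of the 7, and the lowest lateral library lay 1.63 TPM above the highest medial one. Gm2415, an antisense RNA whose start overlaps that of the phosphatase gene Ctdspl by 3 bases on the other strand and which runs opposite the integrin gene Itga9, stood at 11, 21.4, 13.5, 10.9 and 8.95 TPM in lateral libraries and at 7, 1.35, 4.7, 4.46 and 5.59 TPM in medial libraries, a difference of 1.38. Ctdspl itself was at 12 ± 3.98 and 13.3 ± 4.86 TPM (-0.14, limma adjusted p = 0.859). 5530402G07Rik, a TEC locus in the span of the glycosyltransferase gene Gcnt2 on the opposite strand, stood at 6.42, 5.71, 5.94, 11.7 and 4.08 TPM in lateral libraries and at 1.66, 2.96, 3.83, 1.07 and 0 TPM in medial libraries. Its lateral replicate 5 came within 0.249 TPM of the highest medial library.

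Both remaining lateral genes are near-identical to messages of ribosomal proteins, so the authors' counting could have split reads between copies and their levels are uncertain. Gm27529 stood at 3.71, 16.2, 5.13, 12.9 and 12.2 TPM in lateral libraries and at 1.27, 0.961, 0, 1.53 and 1.31 TPM in medial libraries. It matched 20 other genes at 95% identity or more, among them Rpl19 at 100% over its whole length, and Rpl19 was at 444 ± 53 TPM in lateral against 442 ± 62.7 TPM in medial libraries (limma adjusted p = 0.976). Among its less abundant copies, Rpl19-ps1 was at 5.6 ± 2.3 against 3.27 ± 2.19 TPM (0.77, limma adjusted p = 0.521) and Rpl19-ps11 at 86.6 ± 15.4 against 77.6 ± 7.99 TPM (0.14, limma adjusted p = 0.709). Gm5921, a processed pseudogene of the Rps2 family, stood at 7.48, 13.4, 9.5, 7.25 and 8.01 TPM in lateral libraries and at 4.6, 4.18, 5.52, 3.05 and 4.65 TPM in medial libraries. It matched 24 other genes. Its match of highest identity to Rps2 (98.6%) was to a transcript that keeps an intron, and covered 56.2% of the length of Gm5921. Other matches to Rps2 are not given here. Rps2 was at 249 ± 64.9 and 243 ± 73.5 TPM (limma adjusted p = 0.953). Its copies over the whole length leaned toward lateral without passing: Rps2-ps10 (98.1% identity) was at 34.9 ± 11 against 23 ± 7.85 TPM (0.60, limma adjusted p = 0.332) and Rps2-ps13 (97.8%) at 37.7 ± 13.1 against 24.4 ± 4.49 TPM (0.56, limma adjusted p = 0.288). Over the 7 near-identical copies of these 2 genes in the table, none passed, none was lower in lateral and the median difference was 0.44.

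**Figure D2:**
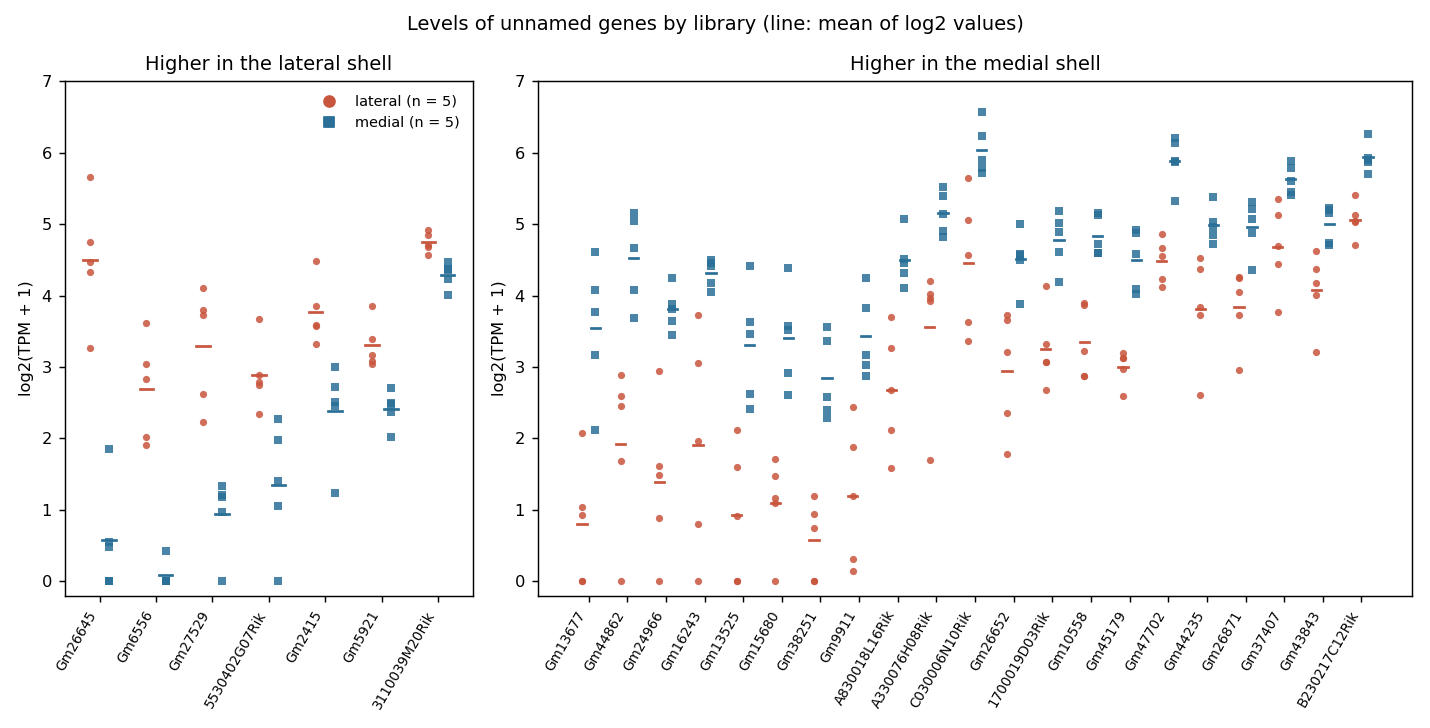
Level of the provisional genes with the largest differences or the highest means in each library, as log2(TPM + 1) on the vertical axis, with 1 point per library coloured by region and a line at the mean of the 5 values. The lateral genes are in 1 panel and the medial genes in the other, and no gene's regions overlap, which is how they were chosen.

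The largest group of medial genes lay inside coding genes on the same strand. There were 29 of these, 26 of them TEC loci, and 27 shared no exonic base with their host, which is 40.9% of the medial genes against 29.9% of all 1974 provisional genes. Of the 590 provisional genes so placed, 4.58% were higher in medial without overlap and none in lateral. Of the 29, 2 lay in A830018L16Rik, itself among the 66, and 27 in 24 other coding hosts. These hosts were not used by the rule and were tested with limma on log2(TPM + 1) over 15596 genes, of which 0.385% passed as higher in lateral and 1.1% as higher in medial at an adjusted p under 0.05 (60 and 171 genes, or 88 and 82 after median-ratio scaling). Of the 24 hosts, 2 passed as higher in medial, 0 passed as higher in lateral, and 9 had an unadjusted p under 0.05, as did 15.4% of all genes tested. Lateral values were lower for 23 of the 24, and for 18 of the 24 after median-ratio scaling. Of all genes tested, 68.7% were lower in lateral, and 52.2% after that scaling. The median difference was -0.54 over the hosts and -1.49 over the genes inside them, and in 26 of 27 pairs the provisional gene differed more than its host. All genes tested had a median of -0.21, which median-ratio scaling moved to -0.02. The provisional genes were chosen for their difference, while the hosts entered only because they hold such a gene. A host can share reads with the gene inside it, so the hosts are no independent measure.

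**Figure D3:**
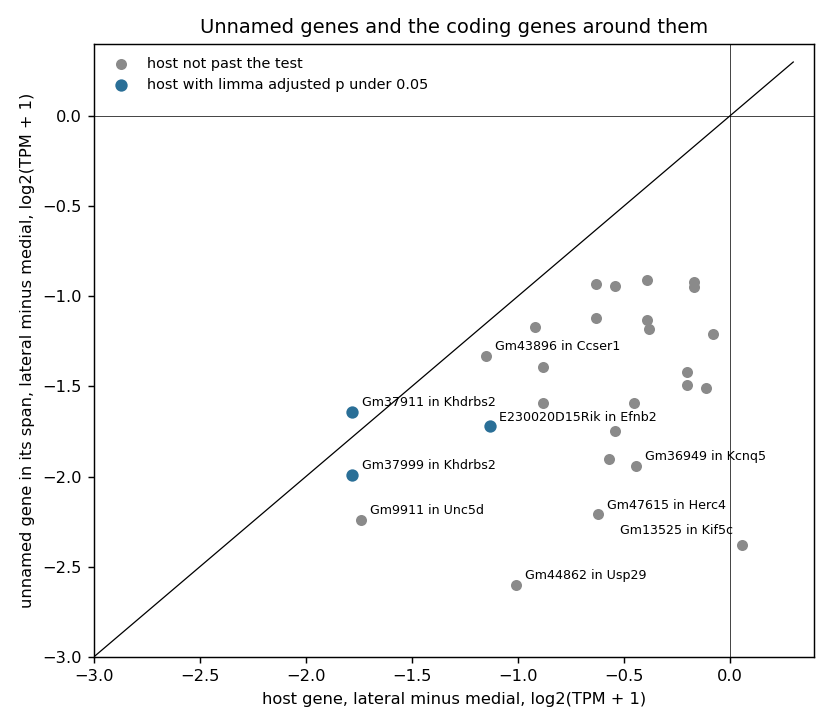
Difference between the regions (lateral minus medial, log2(TPM + 1)) of each medial gene that lies inside a coding gene on the same strand, on the vertical axis, against that of its host, on the horizontal axis, with 1 point per pair (27 pairs, 24 hosts). Most points lie below the diagonal, and the host Kif5c, at 0.06, lies to the right of 0.

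The host with the largest tested difference was Khdrbs2, which encodes an RNA-binding protein of the STAR family that acts in splicing in neurons. Khdrbs2 was at 7.89, 7.47, 4.26, 14.9 and 8.87 TPM in lateral libraries and at 19.9, 44.2, 28.4, 33.3 and 30.4 TPM in medial libraries, without overlap (-1.78, SE 0.30, limma adjusted p = 0.013). Without lateral replicate 5 and medial replicate 2 it was -1.68 with an adjusted p of 0.0872. It holds 2 TEC loci: Gm37999 was at 10.8 ± 5.59 TPM in medial against 2.15 ± 1.87 TPM in lateral libraries, and Gm37911 at 8.87 ± 7.53 and 2.25 ± 1.96 TPM. With region means removed, these 2 loci of the same host correlated at r = 0.04 over 10 libraries, and with Khdrbs2 at 0.04 and 0.17. The second host that passed was Efnb2, encoding ephrin-B2, a membrane-bound ligand in cell contact and axon guidance, at 28, 23.3, 14.8, 16.7 and 26.8 TPM in lateral against 49.5, 48.4, 44.9, 41.6 and 55.3 TPM in medial libraries (-1.13, SE 0.21, limma adjusted p = 0.0192). Its call was lost without lateral replicate 5 and medial replicate 2 (adjusted p = 0.086), without medial replicate 2 alone (0.0579) and without medial replicate 5 (0.0503). E230020D15Rik, the TEC locus of 5899 bases in Efnb2, was at 7.97 ± 1.69 TPM in medial against 1.88 ± 1.16 TPM in lateral libraries.

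The most abundant of all 66 lay in Nkain2, the gene of a membrane protein that binds the sodium pump. C030006N10Rik stood at 9.26, 32.3, 48.9, 22.8 and 11.4 TPM in lateral libraries and at 58.6, 93.7, 74.2, 54.2 and 51.4 TPM in medial libraries. Gm47702 stood at 24.4, 22.5, 28.1, 16.3 and 17.8 TPM in lateral libraries and at 38.9, 69.1, 58.2, 57.3 and 72.5 TPM in medial libraries. Lateral replicate 3 of C030006N10Rik came within 2.53 TPM of the lowest medial library, while the regions were 10.8 TPM apart for Gm47702. Gm47704, on the opposite strand of Nkain2, was at 12.5 ± 2.13 TPM in medial against 3.35 ± 0.979 TPM in lateral libraries. Nkain2 itself was at 29.4 ± 7.14 TPM in medial against 15.9 ± 5.53 TPM in lateral libraries (-0.88, SE 0.27, limma adjusted p = 0.139). The 3 loci correlated with each other at r = 0.30, 0.10 and -0.39 once region means were removed. Whether they vary together between libraries was not tested.

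Several hosts encode proteins of synapses and neurites. Gm45179 in Dlg2, the gene of the postsynaptic scaffold PSD-93, stood at 5.04, 8.16, 7.73, 7.76 and 6.88 TPM in lateral libraries and at 16, 29.1, 15.2, 28.2 and 23 TPM in medial libraries. Gm45159, a lincRNA of the same locus that shares 75 exonic bases with Dlg2, was at 12.7 ± 3.45 TPM in medial against 4.22 ± 1.83 TPM in lateral libraries. The 2 correlated at r = 0.68, and Dlg2 was at 31 ± 10.2 TPM in lateral against 35 ± 7.71 TPM in medial libraries (-0.20, limma adjusted p = 0.755). Gm44235 in Ctnna2, encoding the neuronal alpha-catenin, stood at 5.09, 19.6, 22, 12.2 and 13.3 TPM in lateral libraries and at 30.2, 40.4, 31.5, 25.4 and 27.7 TPM in medial libraries. With region means removed it ran against its host (r = -0.90), the lowest value of the 27 pairs, whereas Gm37407 ran with its host R3hdm1 (r = 0.90), the highest. The 27 values had a median of 0.18, and 20 were above 0. Gm37407 stood at 12.6, 39.8, 33.8, 20.8 and 24.8 TPM in lateral libraries and at 54, 42.8, 47.6, 58.1 and 41.6 TPM in medial libraries, and R3hdm1 was at 17.2 ± 6.67 and 18.3 ± 2 TPM (-0.17, limma adjusted p = 0.812). Gm43843 in Cttnbp2, the gene of a cortactin-binding protein of dendritic spines, stood at 8.21, 19.6, 23.7, 17 and 15.1 TPM in lateral libraries and at 25.1, 34.7, 36.4, 25.5 and 35.5 TPM in medial libraries. The highest lateral library came within 1.88 TPM of the lowest medial one for Gm37407 and within 1.38 TPM for Gm43843.

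Other loci in neuronal genes were less abundant. Gm9911 in Unc5d, the gene of a netrin receptor, stood at 1.28, 4.42, 0.242, 2.69 and 0.11 TPM in lateral libraries and at 8.02, 13.2, 18, 7.18 and 6.34 TPM in medial libraries, a difference of -2.24. Unc5d was at 9.74 ± 4.73 TPM in medial against 2.41 ± 2.13 TPM in lateral libraries (-1.74, SE 0.45, limma adjusted p = 0.0809), and it passed only without lateral replicate 3 (-2.04, adjusted p = 0.0411). Gm36949 in the potassium channel gene Kcnq5 was at 17.3 ± 5.25 TPM in medial against 5.02 ± 3.84 TPM in lateral libraries. Gm37895 in Adgrb3, encoding an adhesion receptor of synapses, was at 13.7 ± 6.04 against 3.95 ± 2.11 TPM. In both cases the host had an unadjusted p above 0.05 (0.0653 and 0.0578). Gm44848 in Grm5, encoding the metabotropic glutamate receptor mGluR5, was at 5.81 ± 2.49 against 0.955 ± 0.437 TPM. Gm42943 in Negr1, encoding a neuronal adhesion protein, was at 9.86 ± 2.66 against 2.5 ± 2.44 TPM. Gm44230 in Lrrtm4, encoding a synaptic organizer, was at 16.8 ± 3.37 against 8.34 ± 2.07 TPM. Gm43896 in Ccser1 was at 10.1 ± 4.82 against 3.2 ± 0.922 TPM, and its host had a difference of -1.15 (SE 0.29, limma adjusted p = 0.075). Gm48015 in Flrt2, encoding a membrane protein that binds Unc5 receptors, was at 18.3 ± 5.32 against 7.88 ± 3.52 TPM.

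Some hosts showed almost no difference, while the loci inside them were chosen for theirs, so the contrast within these pairs is a description only. Gm13525, a processed pseudogene in Kif5c, the gene of a neuronal kinesin motor, stood at 0, 0.881, 2.03, 3.33 and 0 TPM in lateral libraries and at 4.31, 5.15, 20.3, 11.4 and 10 TPM in medial libraries, a difference of -2.38. Kif5c was at 116 ± 16.9 TPM in lateral against 111 ± 17.4 TPM in medial libraries (0.06, SE 0.16, limma adjusted p = 0.893). Gm48870 in Dip2c was at 6.22 ± 1.98 TPM in medial against 1.61 ± 1.15 TPM in lateral libraries, and Dip2c at 11.8 ± 2.75 and 11.2 ± 3.83 TPM (limma adjusted p = 0.888). 9930017N22Rik in Mtdh was at 8.28 ± 2.45 against 3.29 ± 2.03 TPM, and Mtdh at 14.2 ± 2.71 and 13.3 ± 2.53 TPM (limma adjusted p = 0.901). Gm48582 in the kinase gene Dapk1 was at 6.09 ± 0.975 against 2.93 ± 1.48 TPM, with Dapk1 at 12 ± 2.83 and 10.9 ± 4.08 TPM. These hosts differed by less than the spread between their libraries. Gm47615 in Herc4, encoding a ubiquitin ligase, had the lowest lateral mean of the 66, at 5.56 ± 2.08 TPM in medial against 0.46 ± 0.634 TPM in lateral libraries, with 3 lateral libraries listed at 0. Gm36989 in Matr3, the gene of the nuclear matrix protein matrin 3, was at 6.27 ± 2.55 against 2.33 ± 0.996 TPM. Gm44798 in Fam155a was at 9.46 ± 3.81 against 3.62 ± 0.76 TPM.

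A830018L16Rik is the only coding host that was itself chosen. This protein-coding gene spans 11414105 to 11975901 on the plus strand of chromosome 1, with 14 exons in its longest model. It stood at 3.36, 12, 8.64, 2.01 and 5.41 TPM in lateral libraries and at 18.9, 32.6, 16.2, 20.9 and 21.9 TPM in medial libraries, a difference of -1.82. Gm38069 and Gm38178, TEC loci in its introns, were at 7.07 ± 1.92 against 1.3 ± 0.678 TPM and at 7.02 ± 2.24 against 1.89 ± 0.761 TPM. They correlated with A830018L16Rik at r = 0.54 and 0.44, and with each other at 0.06. In all, 14 of the 73 genes shared 6 loci with another of the 73. Over all 2145 pairs of medial genes the median r with region means removed was 0.15, and 65.5% of pairs were above 0.

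Antisense RNAs and other loci on the opposite strand of a coding gene formed another group. Here the counting cannot be assumed to have kept the strands apart, since no source used here says whether reads were assigned by strand. Of 475 provisional genes whose main overlap is with a coding gene on the opposite strand, 13 (2.74%) were higher in medial and 4 (0.842%) in lateral without overlap. Over all 1974 provisional genes these shares were 3.34% and 0.355%. The 66 medial genes overlapped 19 opposite-strand genes of any type in the table. All 19 were lower in lateral (17 of 19 after median-ratio scaling), 2 passed the test as higher in medial, and 9 had an unadjusted p under 0.05, where 68.7% of all genes tested were lower in lateral (52.2% after that scaling) and 15.4% had such a p. These 19 genes entered because they overlap a chosen gene and can share reads with it, so they are no independent measure. Of the 19, those that passed were Zbtb20 and Mark1. Zbtb20, encoding a zinc finger transcription factor, was at 8.99, 11, 26.3, 10.2 and 30.4 TPM in lateral against 49.9, 63.4, 50.8, 52.8 and 48.1 TPM in medial libraries (-1.72, SE 0.31, limma adjusted p = 0.019; 0.0622 without medial replicate 2). Its antisense RNA Gm19522 was at 5.15 ± 0.933 TPM in medial against 0.595 ± 0.945 TPM in lateral libraries and was listed at 0 in 3 of the latter. Mark1, encoding a microtubule affinity-regulating kinase, was at 23.4, 25.5, 17.9, 26.9 and 31.8 TPM in lateral against 56.2, 49.7, 56.2, 48.9 and 63.7 TPM in medial libraries (-1.12, SE 0.18, limma adjusted p = 0.013). Gm38251, opposite Mark1, stood at 0.928, 0.684, 0, 1.3 and 0 TPM in lateral libraries and at 4.96, 4.28, 3.89, 9.34 and 10.8 TPM in medial libraries, a difference of -2.26. Neither antisense RNA shares an exonic base with its partner, and with region means removed the pairs correlated at -0.49 (Gm19522 and Zbtb20) and 0.19 (Gm38251 and Mark1).

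The largest difference of the 66 belonged to Gm13677, a processed pseudogene opposite Zfp804a, the gene of a zinc finger protein. It stood at 0, 1.05, 3.22, 0.911 and 0 TPM in lateral libraries and at 8.02, 23.3, 3.34, 15.8 and 12.6 TPM in medial libraries, a difference of -2.74. Medial replicate 3 was 0.124 TPM above lateral replicate 3, so the separation rests on a narrow margin in spite of the size of the mean difference. Zfp804a was at 29.4 ± 13.9 TPM in medial against 9.12 ± 6.39 TPM in lateral libraries (-1.97, SE 0.63, limma adjusted p = 0.157). Gm16243, opposite Pde8b, which encodes a cAMP phosphodiesterase, stood at 0.752, 12.3, 7.34, 2.89 and 0 TPM in lateral libraries and at 15.6, 21.6, 17, 21 and 20.2 TPM in medial libraries, and its medial values were closely grouped while the lateral ones ran from 0 to 12.3. Pde8b was at 32.9 ± 6.74 against 16.2 ± 10.7 TPM (-1.20, limma adjusted p = 0.154). Gm10558, opposite Map2, the gene of a dendritic microtubule-associated protein, stood at 8.37, 6.3, 13.6, 6.32 and 13.9 TPM in lateral libraries and at 25.3, 33.9, 23.2, 23.2 and 34.5 TPM in medial libraries. Map2, which shares 124 exonic bases with it, was at 54.3 ± 17.6 against 28.6 ± 8.14 TPM (-0.88, SE 0.27, limma adjusted p = 0.138).

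A330015K06Rik, opposite the potassium channel subunit gene Kcnab1, was at 9.24 ± 2.73 TPM in medial against 2.85 ± 1.57 TPM in lateral libraries. Kcnab1, which shares 201 exonic bases with it, was far more abundant and nearly equal, at 157 ± 28.8 and 151 ± 23.5 TPM (-0.06, limma adjusted p = 0.906). Gm48321, opposite the thyroid hormone receptor gene Thrb, was at 5.81 ± 3.72 against 0.715 ± 0.461 TPM, and Thrb at 14 ± 5.43 against 7.73 ± 3.15 TPM (-0.76, limma adjusted p = 0.318). Gm16861, opposite the ubiquitin ligase gene Mgrn1 and Nudt16l1, was at 5.63 ± 3.23 against 0.805 ± 0.743 TPM. Gm42722, opposite Chil5, was at 14.9 ± 4.33 against 3.65 ± 1.29 TPM. Gm17212, a processed pseudogene opposite the phosphatase gene Ppm1l, was at 13 ± 3.45 against 3.5 ± 2.47 TPM. Gm13833, opposite the long noncoding RNA gene Lncpint, was at 5.49 ± 1.27 against 1.64 ± 1.76 TPM. Gm15680, on the strand of the cadherin gene Cdh8 and reaching beyond it, stood at 1.13, 1.24, 0, 1.79 and 2.29 TPM in lateral libraries and at 10.5, 6.54, 10.9, 19.9 and 5.08 TPM in medial libraries. The lowest medial library of Gm15680 was 2.79 TPM above the highest lateral one, and Cdh8 was at 18.2 ± 7.11 against 9.48 ± 5.58 TPM (-0.95, limma adjusted p = 0.262).

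In the group that starts head to head with a coding gene, the windows printed above hold the clearest contrast. Stard5, encoding a lipid-transfer protein, was at 0.416, 3.51, 0.25, 0.838 and 3.37 TPM in lateral against 52.8, 133, 49, 61.3 and 59.5 TPM in medial libraries (-4.87, SE 0.41, limma adjusted p = 0.0003). Gm16638, whose start lies 78 bases away, was at 4.01, 11.4, 6.8, 9.9 and 4.08 TPM in medial against 1.07, 1.99, 2.11, 0.795 and 1.02 TPM in lateral libraries, a difference of -1.72. Gm16638 also shares 3961 of its 9296 exonic bases with Tmc3 on the opposite strand, which has no values used here. Stard5, which was not used by the rule, did not overlap between the regions, whereas Gm16638 was chosen for not overlapping. With region means removed, Stard5 and Gm16638 correlated at r = 0.32. Gm14204 was at 14.5 ± 6.24 TPM in medial against 4.32 ± 1.25 TPM in lateral libraries, while Slc32a1, 43 bases away and encoding the vesicular transporter of GABA, was at 20.4 ± 3.59 and 24.7 ± 5.33 TPM (0.26, SE 0.21, limma adjusted p = 0.592). The values of Slc32a1 in the 2 regions overlapped. 4632427E13Rik was at 14.5 ± 2.64 TPM in medial against 7.86 ± 1.93 TPM in lateral libraries, and Rab30, encoding a small GTPase of the Golgi, at 14.6 ± 3.71 and 7.29 ± 4.45 TPM (-1.09, limma adjusted p = 0.231). 5530601H04Rik on the X chromosome was at 8 ± 0.752 against 4.01 ± 0.767 TPM, and Pbdc1, which starts 146 bases away, at 13 ± 3.31 and 11.5 ± 2.95 TPM (-0.16, limma adjusted p = 0.815). Over the 11 coding genes within 100 kb that read away from a medial gene head to head, 1 passed, as higher in medial. Of the 11, 4 had an unadjusted p under 0.05, as did 15.4% of all genes tested. Lateral values were lower for 7 of the 11, with a median difference of -0.16. Of all genes tested, 68.7% were lower in lateral, with a median of -0.21. 8030451O07Rik, a lincRNA of 5 exons, was at a greater distance. It stood at 1.98, 2.29, 4.74, 6.46 and 3.62 TPM in lateral libraries and at 12.7, 27.5, 10.7, 30.1 and 13.5 TPM in medial libraries, and it starts 73978 bases from Robo1, the gene of a receptor for Slit guidance proteins.

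**Figure D4:**
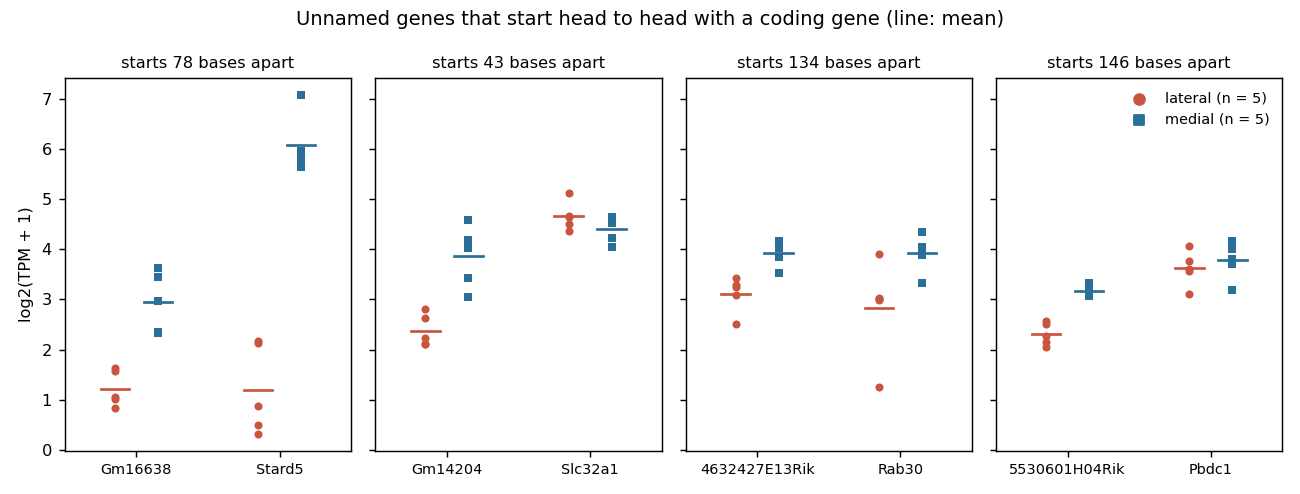
Level in each library, as log2(TPM + 1), of 4 medial genes and of the coding genes that start 43 to 146 bases from them on the other strand, with 1 point per library and a line at the mean. Stard5 is higher in the medial libraries, while Slc32a1 overlaps between the regions. The 4 medial genes do not overlap, which is how they were chosen.

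Several medial genes lie on chromosome 7 at imprinted loci, at which only the copy from one parent is active in neurons. Gm44862 lies in Usp29, a paternally expressed gene that reads away from Peg3 on the opposite strand. It stood at 4.47, 2.21, 5.04, 6.38 and 0 TPM in lateral libraries and at 11.9, 32, 34.7, 24.4 and 15.8 TPM in medial libraries, a difference of -2.60. Usp29 was at 7.21 ± 3.02 TPM in medial against 2.86 ± 0.684 TPM in lateral libraries (-1.01, limma adjusted p = 0.198), and Peg3 was at 76.2 ± 7.63 and 50.5 ± 6.49 TPM (-0.59, SE 0.15, limma adjusted p = 0.0828). Neither passed, and the values of Usp29 overlapped. Gm24966, the snoRNA printed above, lies in the span of Snhg14, the long transcript that runs antisense to the ubiquitin ligase gene Ube3a and hosts many snoRNAs. It stood at 0.857, 6.73, 0, 1.81 and 2.05 TPM in lateral libraries and at 11.5, 13.8, 18, 13 and 9.94 TPM in medial libraries, a difference of -2.42. Snhg14 was at 17.5 ± 2.98 TPM in medial against 11.5 ± 2.87 TPM in lateral libraries (-0.59, limma adjusted p = 0.265). Gm44560, a TEC locus that shares 2025 exonic bases with Ube3a on the opposite strand, was at 19.9 ± 7.41 against 10.1 ± 2.66 TPM, and Ube3a at 31.7 ± 10.9 against 21 ± 6 TPM (-0.54, limma adjusted p = 0.359). A330076H08Rik, farther along the same chromosome at 61930137 to 61982358 and overlapping genes of the Mir344 family, stood at 2.26, 15.3, 14.6, 14.1 and 17.4 TPM in lateral libraries and at 34.2, 44.6, 28.8, 40.9 and 27.1 TPM in medial libraries. Its lateral replicate 1 was far below the other 4, and the lowest medial library was 9.79 TPM above the highest of them.

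Gm26871, the host transcript of miR-137, stood at 6.79, 15.5, 18.1, 17.9 and 12.2 TPM in lateral libraries and at 19.5, 32.5, 36, 28.3 and 38.8 TPM in medial libraries. The precursor gene Mir137, whose mature sequence is printed above, was at 0.316 TPM in medial against 1.28 TPM in lateral libraries and was too low to be tested. Gm37928, a TEC locus of 4131 bases on the same strand just downstream, was at 16.5 ± 6.69 against 5.22 ± 2.42 TPM. The 2 correlated at r = 0.74 with region means removed, the highest value among the pairs that share a locus. Gm26652, a lincRNA on the X chromosome with no gene counted as a partner, stood at 2.45, 11.6, 12.3, 8.21 and 4.12 TPM in lateral libraries and at 31, 22.9, 22.8, 21.5 and 13.7 TPM in medial libraries. Its lowest medial library, replicate 5, was 1.4 TPM above its highest lateral one.

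Protein-coding models made up 7 of the 66, and 2.76% of the 254 such models with the required mean were higher in medial without overlap. B230217C12Rik stood at 33.9, 31.8, 41.5, 31.5 and 25.2 TPM in lateral libraries and at 50.9, 59.7, 57.6, 58.6 and 75.7 TPM in medial libraries. 1700019D03Rik, for which RefSeq also lists the name smAKAP, a small membrane-bound anchor of protein kinase A, stood at 7.36, 7.43, 8.96, 5.41 and 16.6 TPM in lateral libraries and at 17.3, 28.6, 23.3, 31.3 and 35.4 TPM in medial libraries. The regions were 9.41 TPM apart for B230217C12Rik, whereas lateral replicate 5 of 1700019D03Rik came within 0.707 TPM of the lowest medial library. 1110017D15Rik was at 12.7 ± 1.95 against 2.74 ± 2.25 TPM (-2.13). 1190002N15Rik was at 9.59 ± 2.04 against 3.62 ± 1.61 TPM. C330018D20Rik, at 19.1 ± 5.41 against 11.3 ± 3.34 TPM, had the smallest difference of the 66 (-0.71). Gm21748, a single-exon model of 309 bases on the Y chromosome, was at 11.2 ± 2.51 against 3.47 ± 3.63 TPM. Its sequence occurs without a difference in Gm21860 and G530011O06Rik over its whole length, so reads of that sequence cannot be assigned among them. With region means removed, it correlated with Gm21860 at r = 0.96 and with G530011O06Rik at r = -0.01.

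The remaining medial genes were noncoding or pseudogene models. Gm12543, a transcribed pseudogene that is counted above among those inside a coding gene (Snx30), with 99.1% identity to the sorting nexin gene Snx2, was at 13.7 ± 3.27 against 6.89 ± 2.13 TPM, and Snx2 at 51.2 ± 13.9 against 36.3 ± 12.8 TPM (-0.52, limma adjusted p = 0.431). At 95% identity over at least 50% of the transcript, 4 of the 73 had a copy elsewhere: Gm27529, Gm5921, Gm12543 and Gm21748. 1110038B12Rik, a processed transcript on chromosome 17, was at 16.1 ± 2.07 against 7.84 ± 1.97 TPM. Gm28756 was at 5.44 ± 2.78 against 1.28 ± 0.955 TPM. C130073E24Rik, a lincRNA of 19000 exonic bases, was at 6.35 ± 1.56 against 2.96 ± 0.483 TPM. Gm20342, in the span of Ino80dos, was at 5.58 ± 2.06 against 2.18 ± 0.912 TPM. Gm37632, in the span of the provisional gene Gm4258, was at 7.78 ± 3.4 against 1.52 ± 1.33 TPM. Of the 66 medial genes, 14 lay on chromosome 1, which carries 171 of the 1974, and none of the 200 provisional genes on chromosome 5 was chosen in either direction.

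Beyond the chosen genes, TEC loci as a class had lower values in the lateral libraries. The 442 TEC loci with the required mean that were not chosen had a median difference of -0.72, and 84.6% of them were lower in lateral. After median-ratio scaling these were -0.54 and 79.4%. The corresponding values for genes with other symbols were -0.19 and 69.4%, and 0.00 and 49.5% after that scaling. Among the other provisional genes that were not chosen, 545 processed pseudogenes had a median of -0.11, which median-ratio scaling turned to 0.09, and 247 protein-coding models had -0.19, which it turned to 0.01. The 131 antisense RNAs had -0.59 and -0.42, and the 563 loci in introns -0.69 and -0.51. The 727 TEC loci with means under 5 TPM held 0.12% ± 0.0323 of TPM in lateral and 0.159% ± 0.0283 in medial libraries (SD, n = 5 each; two-sided exact permutation test, p = 0.0794, adjusted 0.172). These class values were added after seeing the data. The medians compare many loci read from the same 10 libraries and carry no test.

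**Figure D5:**
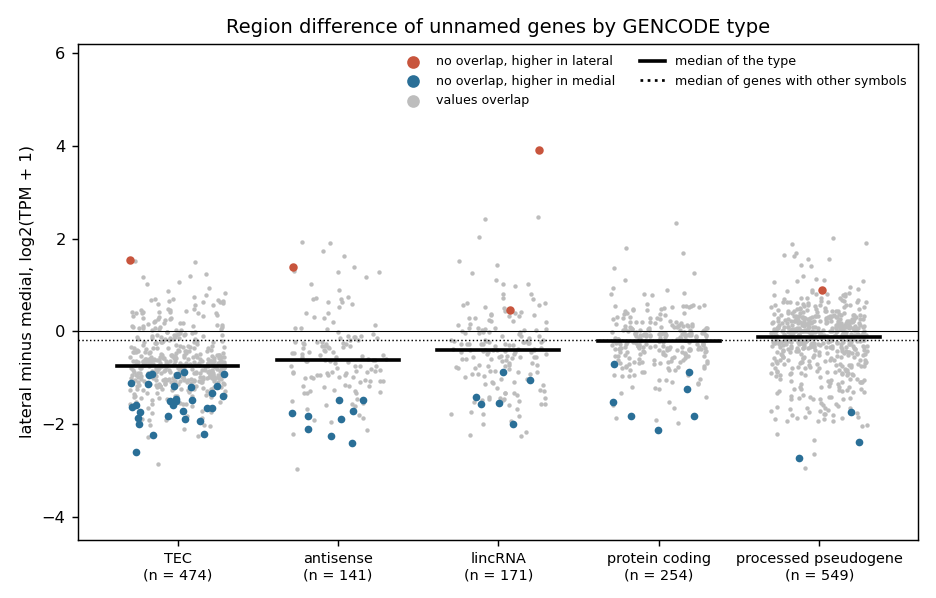
Difference between the regions (lateral minus medial, log2(TPM + 1), vertical axis) of provisional genes of the required mean, by GENCODE type, chosen genes included. TEC loci have a median of -0.75 and processed pseudogenes of -0.12, against -0.19 for genes with other symbols.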

How the data were processed

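Expression was measured in 10 libraries, 5 of each region. The authors deposited TPM values per gene symbol, scaled to a total of 1000000 per library. Tools listed without their roles, per the submitters' processing notes, are HISAT2 2.1.0, featureCounts 1.6.3, StringTie 1.3.4 and fastp 0.20.0, with the build GRCm38 (mm10). Not given in the sources used here are the annotation, whether reads were assigned by strand, and any filters. TPM keeps no depth, and 1 abundant transcript lowers all other values of a library.

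Gene types, positions and overlaps came from GENCODE M21 (GRCm38), in which all 20483 symbols occur. Promoter windows and the microRNA came from RefSeq, and copies from blastn 2.17.0. Genes with at least 1 TPM in at least 5 of 10 libraries were tested with limma 3.58.1 (R 4.3.3, mean-variance trend, Benjamini-Hochberg adjustment) on log2(TPM + 1), and library measures with exact two-sided permutation over 252 divisions. All 73 genes passed that filter. In simulated data over 15596 genes, true log2 differences of 1, 2 and 3 were recovered in 26.9%, 83.6% and 93.9% of cases, and 7 of 143 calls were false. Only genes with a mean log2(TPM + 1) above 2 were changed. The simulated noise was normal and independent between genes, with no shift of whole libraries. These rates need not hold for genes at low levels or for the real spread. Figures were drawn with matplotlib 3.10.9.

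The genes, lists and tests were chosen with earlier results of these data known. Every chosen gene is named. Those with a mean of at least 20 TPM or among the 8 largest differences in their direction have all sample values and the others have means, except that Gm16638, 8030451O07Rik and the partner genes that passed also have all values. Partners are genes that overlap a chosen gene, the nearest coding genes within 100 kb and near-identical copies, and part of them are named; 1 such result is not reported here. The alternatives changed the required mean, the pseudocount, the filter, the scaling, the variance model, a block for the replicate number, the identity required of copies and the libraries used.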

Additional observations from a re-analysis of the deposited data

Results flagged for a closer look

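Among 204 groups of 5 values (each chosen gene, coding host and library measure in each region), 10 held 1 library far from the other 4. Chance alone gives such a value in about 1 group in 20.

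Among the lateral genes, Gm26645 was at 2.61 TPM in medial replicate 3, with the other medial libraries at 0 to 0.472 TPM, and Gm6556 was at 0.345 TPM in medial replicate 5, with the other 4 listed at 0. Among the medial genes, lateral libraries stood apart for 4. A330076H08Rik was at 2.26 TPM in lateral replicate 1 (others 14.1 to 17.4 TPM). Gm17212 was at 7.71 TPM in lateral replicate 2 (others 1.66 to 3.41 TPM). Gm44848 was at 0.201 TPM in lateral replicate 2 (others 0.975 to 1.28 TPM). Gm48870 was at 3.61 TPM in lateral replicate 4 (others 0.678 to 1.46 TPM). Gm37911 was at 22 TPM in medial replicate 2, with the others at 4.08 to 8.36 TPM.

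Of the hosts, Dlg2 was at 21.5 TPM in medial replicate 3 (others 36.1 to 40.5 TPM), Grm5 at 81.3 TPM in the same library (others 71.2 to 73.5 TPM) and Flrt2 at 38.6 TPM in medial replicate 1 (others 20.4 to 24.2 TPM).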

How the results depend on the processing

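The number of lateral genes (7) was 11 with a required mean of 1 TPM, 4 with 10 TPM, 21 with median-ratio scaling, 25 without lateral replicate 5 and medial replicate 2, and 8 to 16 with 1 library left out (16 without lateral replicate 4 or 5). The number of medial genes (66) was 40 with a mean of 10 TPM, 39 with median-ratio scaling (38 of them among the 66), 104 without those 2 libraries and 80 to 132 with 1 library left out (132 without medial replicate 1). Fewer libraries make an overlap less likely, so these counts rise by construction. Rescaling without mitochondrial genes gave 9 lateral genes, including all 7, and 62 medial genes, 52 of them among the 66. C030006N10Rik and Gm13677 were among the medial genes lost. All 66 medial and 7 lateral genes kept their direction under both other scalings. They were chosen for differences larger than the shift these scalings make, so this outcome followed from the choice. Genes passing limma (60 higher in lateral and 171 in medial) numbered 88 and 82 with median-ratio scaling, 34 and 111 without the variance trend, 15 and 35 without the 2 libraries, and 27 to 68 and 56 to 187 with 1 library left out (27 and 56 without medial replicate 2). A pseudocount of 0.1 gave 107 in medial. Chosen genes with a copy elsewhere numbered 8, in place of 4, at 90% identity.

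Deviations of samples with the same replicate number were nearly uncorrelated (-0.0534, 0.0417, -0.00833, -0.00377 and -0.0141, each below the highest with another number). A single value is likely to fall below the highest of several, so this comparison cannot decide whether equal numbers were paired. A replicate block gave 19 and 45 passing genes and adjusted p of 0.0536 for Efnb2, 0.0541 for Mark1 and 0.0598 for Zbtb20.

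The difference in genes of at least 1 TPM (-644) was -570 without the 2 libraries (exact p = 0.114) and -521 without mitochondrial genes (exact p = 0.0873), and -769 to -482 with 1 library left out. With 1 library left out, the differences in share of TPM ran from -0.192 to -0.103 for provisional genes with low means, from 2.32 to 4.94 for mitochondrial genes and from -0.0516 to -0.0319 for TEC loci with low means (-0.0286 without the 2 libraries). Some partner genes changed sign, none of them past the test. With median-ratio scaling Ctdspl was 0.06, Dlg2 0.01, Kcnab1 0.16, Pbdc1 0.03 and R3hdm1 0.03, and the median of genes with other symbols was 0.00. Without the 2 libraries Ctdspl was 0.08, Dlg2 0.02 and Rpl19 -0.03. Without mitochondrial genes Kcnab1 was 0.02. With 1 library left out, Ctdspl ran from -0.28 to 0.05, Dlg2 from -0.36 to -0.03, Kcnab1 from -0.12 to 0.04 (0.03 without lateral replicate 3), R3hdm1 from -0.32 to 0.05, Kif5c from -0.00 to 0.15, Rpl19 from -0.07 to 0.06 (also -0.05 and -0.01) and Rps2 from -0.16 to 0.25 (also -0.04 and -0.00). The cause of these changes was not tested.

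Depth is unknown, so no limit from counting can be given for genes listed at 0, and 5 libraries a region limit what the tests can detect.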
